A study of Homo sapiens with 9 samples.

Results

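The genes described here are the core of the TGF-beta pathway: the 3 ligands TGFB1, TGFB2 and TGFB3, the 3 receptors TGFBR1, TGFBR2 and TGFBR3, and the 4 SMAD proteins SMAD2, SMAD3, SMAD4 and SMAD7. They were chosen by name, 10 of 23278 genes in the table, with results of these data already known, among them the rise of TGFB2 with 1 hairpin. Of the 10, 9 had a mean of at least 1 FPKM (fragments per kilobase of transcript, relative to the library's fragments) over the libraries and were tested together with all other such genes, 11952 in total. TGFB3, at a mean of 0.957 FPKM, was not tested. TGFB2, at a control mean of 0.484 FPKM, reached a mean of 1 FPKM only through its silenced libraries.

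RT112 is an established line of human bladder carcinoma cells, and 9 libraries of its RNA were sequenced. In 3 libraries the cells carried a control short hairpin RNA (shNT), in 3 the STAG2 hairpin sh1, and in 3 the STAG2 hairpin sh2; STAG2 belongs to cohesin, a ring of proteins that shapes chromatin loops. All 3 groups were transduced and kept in medium without serum before RNA was taken, so no group of untransduced or serum-fed cells stands beside them, and no TGF-beta was added as far as the labels say. Whether replicates of a group were separate cultures is not in the labels, so each p-value reflects only the variation among these libraries, which may be technical.

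TGF-beta ligands are made as latent dimers bound to their own propeptide and must be freed outside the cell. A freed ligand joins TGFBR2, a receptor kinase, to TGFBR1, which then phosphorylates SMAD2 and SMAD3. These enter the nucleus with SMAD4, and SMAD7 inhibits the chain at the receptor. In epithelial cells the pathway is known for arresting growth and for favouring mesenchymal traits, and TGFB2 needs the co-receptor TGFBR3 more than TGFB1 does because it binds TGFBR2 weakly by itself.

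STAG2 stood at 26.4 ± 9.02 FPKM in the control cells, 4.41 ± 0.824 under sh1 and 3.94 ± 0.857 under sh2 (n = 3 each, SD), and all 6 silenced libraries lay below all 3 control libraries. The 7 urothelial and epithelial markers were all expressed, from 24.9 FPKM for the lowest value of FGFR3 to 1927 FPKM for the highest of KRT19. Of 8 fibroblast markers 6 stayed under 1 FPKM in every library, COL1A2 being listed at 0 in all 9, while LUM reached 408 and COL1A1 6.85 FPKM. The summed fibroblast list ran from 206 to 414 FPKM in control and from 121 to 377 FPKM in silenced libraries. Of 6 immune markers 5 stayed under 1 FPKM (CD68 reached 12.1), as did all 5 endothelial markers. Library totals were 397792 to 434433 FPKM in 8 libraries and 516464 in shNT replicate 1. By this total shNT replicate 1 stands apart, so the main results are also given without it. Of the 10 genes 6 had their lowest value in shNT replicate 3, and TGFB2 and TGFBR2 are also given without that library.

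Promoter sequences of the ligand and receptor that moved most, and of the ligand with the highest level, are printed to show how their DNA differs. They are the 250 bases before the RefSeq start (GRCh38.p14), 5′ to 3′ on the gene's strand, with matches in capitals to the motifs searched. The TATA box was searched as TATAAA and the GC box as GGGCGG. The E-box was searched as CACGTG and the core of the cyclic AMP response element as TGACGT. The AP-1 site was searched as TGANTCA and the SMAD palindrome as GTCTAGAC, all of them on both strands. For TGFB2 the window is chr1:218345086-218345335 on the plus strand, and RefSeq places this start upstream of the GENCODE 29 gene, which runs from 218346235 to 218444619. For TGFBR2 it is chr3:30606106-30606355 on the plus strand, before the more upstream of 2 listed starts, and the GENCODE gene runs from 30606502 to 30694142. For TGFB1 it is chr19:41353923-41354172 on the minus strand, and the GENCODE gene runs from 41301587 to 41353911.
TGFB2: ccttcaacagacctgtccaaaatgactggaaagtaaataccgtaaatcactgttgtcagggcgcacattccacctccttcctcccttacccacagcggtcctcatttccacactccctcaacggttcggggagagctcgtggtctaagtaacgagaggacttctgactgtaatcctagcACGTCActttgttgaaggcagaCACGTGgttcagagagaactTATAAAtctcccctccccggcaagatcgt
TGFBR2: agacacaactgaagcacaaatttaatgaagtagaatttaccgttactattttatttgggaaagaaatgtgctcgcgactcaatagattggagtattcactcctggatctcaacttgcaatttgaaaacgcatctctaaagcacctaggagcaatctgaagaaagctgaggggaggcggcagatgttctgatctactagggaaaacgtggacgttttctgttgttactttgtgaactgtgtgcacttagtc
TGFB1: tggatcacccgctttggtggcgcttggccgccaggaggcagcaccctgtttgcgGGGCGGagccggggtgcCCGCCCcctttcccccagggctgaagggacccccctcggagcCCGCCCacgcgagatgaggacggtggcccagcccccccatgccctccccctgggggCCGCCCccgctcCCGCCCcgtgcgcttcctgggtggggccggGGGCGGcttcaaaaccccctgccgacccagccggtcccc
The TGFB2 window held TATAAA 29 bases before the start, CACGTG at 49 bases and TGACGT, printed as its reverse complement ACGTCA, at 71 bases, with no GGGCGG. Its GC content was 50.4%. The TGFB1 window held 6 GC boxes and none of the other motifs, and its GC content was 76.8%. The printed TGFBR2 window held no match, and its GC content was 40.8%. The window before the other listed TGFBR2 start, chr3:30606351-30606600, is not printed. It held GC boxes 198 and 80 bases before that start, and its GC content was 58.4%. Of the 26 windows listed for the 10 genes, 11 held the GC box, 3 the TATA box, 3 the E-box, 2 the cyclic AMP element and 1 the AP-1 site. TATAAA occurred in windows of TGFB2, TGFB3 and SMAD7, and GGGCGG in windows of the other 7 genes and in none of these 3. Of 35116 windows of the same length in the RefSeq table, 42.6% held GGGCGG, 10.7% TATAAA, 6.34% CACGTG, 7.1% TGACGT and 6.57% TGANTCA. Of the 12434 windows of tested genes the shares were 64.1%, 5.69%, 8.24%, 9.39% and 4.49% in the same order. GTCTAGAC was in no window of the 10 genes, in 0.182% of all windows and in 0.145% of those of tested genes. These matches describe the letters only.

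Among the ligands, TGFB2 was the one whose control and silenced libraries did not overlap. In RNA from whole cultures, a change in the number of cells that express a gene and a change in RNA per cell cannot be told apart. TGFB2 RNA was at 0.199, 0.874 and 0.380 FPKM in shNT replicates 1 to 3. It was at 6.33, 2.89 and 3.15 FPKM in sh1 and at 2.78, 1.55 and 1.86 FPKM in sh2. Every one of the 6 silenced libraries was above every control library, and every sh2 library was below every sh1 library. The means were 0.484 ± 0.349 FPKM with shNT, 4.12 ± 1.92 with sh1 and 2.06 ± 0.640 with sh2 (n = 3 each, SD), 8.52-fold and 4.26-fold the control level. On the log2(FPKM + 1) scale, which understates changes of genes this low, the difference was 1.75 (SE 0.27) with sh1 and 1.05 (SE 0.27) with sh2. TGFB2 was past the threshold (limma, adjusted p under 0.05 over all tested genes) with sh1, where 0.167% of genes passed. The family was chosen knowing this, so no p is given for it and nothing is read from the count. It was not past the threshold with sh2 (limma adjusted p = 0.372), where 0.00837% of genes passed. Over both hairpins the value was 1.40 (SE 0.24, limma adjusted p = 0.314), also not past the threshold, and 0.00837% of genes passed there. Without shNT replicate 1, the library with the lowest TGFB2, the log2 fold changes were 1.61 with sh1 and 0.91 with sh2. Without shNT replicate 3 they were 1.71 and 1.01. The sh1 call was lost on leaving out any 1 of the 9 libraries. The log2 fold change with sh1 was then 1.46 to 1.93.

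TGFB1, the most widely expressed of the ligands, was far more abundant, and its groups did not separate. Control libraries held 46.4, 36.6 and 28.3 FPKM, sh1 libraries 37.3, 35.1 and 32.9, and sh2 libraries 49.3, 37.2 and 40.8. The groups overlapped, and the values of sh1 lay inside the control range. The log2 fold change was -0.052 with sh1 (95% interval -0.46 to 0.36, limma adjusted p = 0.927) and 0.21 with sh2 (95% interval -0.20 to 0.62, limma adjusted p = 0.610). TGFB1 shares 215 bases of exon with HNRNPUL1 on the opposite strand, which stood at 62.2 to 100.4 FPKM. The libraries kept strand, but whether the counting used it is not given, so reads in those bases cannot be assigned with certainty.

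TGFB3 was near the lower limit of what was tested in all groups. It stood at 1.10, 0.870 and 0.579 FPKM with shNT, 1.20, 0.781 and 0.868 with sh1, and 0.935, 1.05 and 1.23 with sh2. The groups overlapped throughout.

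Within each library, TGFB1 made up most of the ligand RNA and TGFB2 a share that differed between the groups. FPKM are per transcript length, so the 3 ligands can be set side by side. TGFB2 was 1.33% ± 0.932 of the summed ligand FPKM with shNT, 10.0% ± 3.59 with sh1 and 4.46% ± 0.703 with sh2 (n = 3 each, SD). The lowest silenced share, 3.90%, was above the highest control share, 2.28%. This largely restates the rise of TGFB2, known when the family was chosen, so nothing further is read from it. TGFB1 was 96.5% ± 0.934, 87.6% ± 3.89 and 93.1% ± 0.278 in the same order, and TGFB3 stayed between 1.76% and 2.79% in all 9 libraries. The summed ligand level was 38.4 ± 9.22 FPKM with shNT, 40.2 ± 4.13 with sh1 and 45.6 ± 6.75 with sh2, with overlapping ranges.

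**Figure D1:**
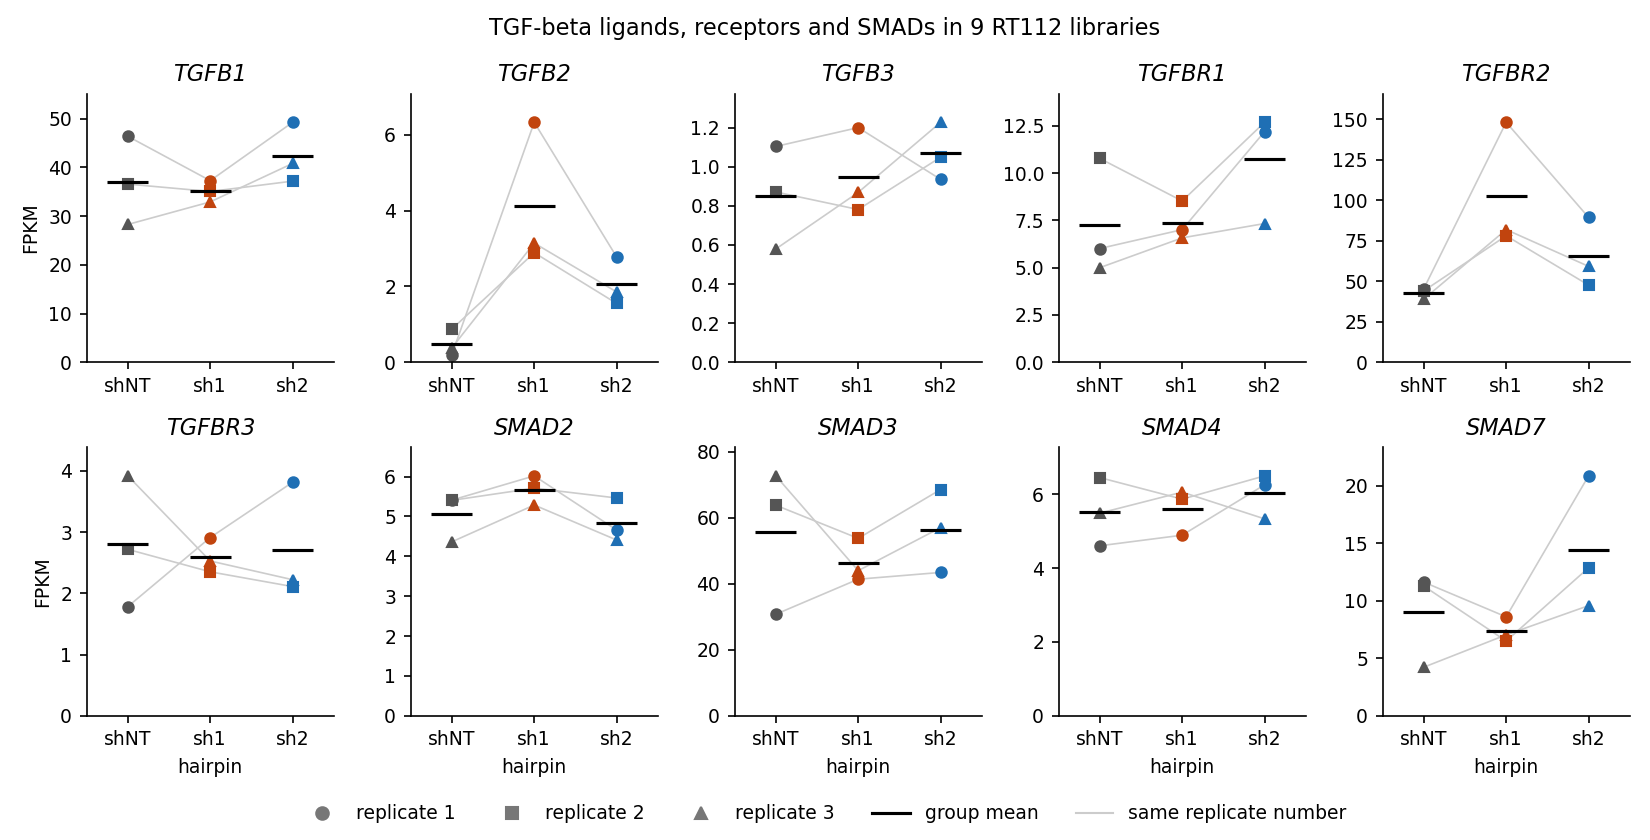
FPKM of the 10 genes in each of the 9 libraries, on linear axes from 0, with the hairpin on the x axis; bars are group means, marker shape gives the replicate number, and grey lines join libraries of the same number. For TGFB2 and TGFBR2 all 6 silenced libraries lie above the 3 control libraries, and for the other 8 genes the silenced and control libraries overlap.

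Among the receptors, TGFBR2 showed the same order of groups as TGFB2. The kinase that binds the ligand was at 45.5, 44.1 and 39.0 FPKM with shNT. It was at 148, 78.1 and 81.9 FPKM with sh1 and at 89.5, 47.7 and 59.3 FPKM with sh2. The control values were close together, all 6 silenced values were above them, and replicate 1 was the highest of each silenced group. In the pairs of equal replicate number TGFBR2 was therefore higher with the hairpin in 6 of 6, as was TGFB2. That count follows from the lack of overlap, and the pairs share the 3 control libraries. TGFB2 was lower with sh2 than with sh1 in 3 of 3 pairs, which also follows from groups that do not overlap. TGFBR2 was lower with sh2 in 3 of 3 pairs too, although its sh1 and sh2 ranges overlapped. The means were 42.9 ± 3.39, 103 ± 39.4 and 65.5 ± 21.6 FPKM (SD, n = 3 each), 2.40-fold and 1.53-fold the control level. The log2 fold change was 1.18 with sh1 (SE 0.28, limma adjusted p = 0.151), 0.55 with sh2 (SE 0.28, limma adjusted p = 0.413) and 0.87 over both (SE 0.24, limma adjusted p = 0.326), so it did not pass. With the replicate number as a block it passed with sh1 (1.18, SE 0.18, limma adjusted p = 0.0461), which made 2 of 9 members past the threshold there, against 0.644% of all tested genes. One of the 2 is TGFB2, for which the family was chosen. Without shNT replicate 1 the log2 fold changes were 1.22 with sh1 and 0.60 with sh2. TGFB2 and TGFBR2 were 2 of 9 tested members with all 6 silenced libraries above all controls, a pattern that 2.28% of all tested genes had. With all 6 below all controls there were 0 members and 2.17% of all genes. For 1 hairpin at a time, the same 2 members were above all controls, against 8.7% of genes with sh1 and 6.67% with sh2. None was below all controls, against 8.97% and 8.54% of genes. TGFB2 was tested only through its silenced libraries, and its rise with sh1 was known beforehand. The counts above control therefore describe the values, and nothing is read from them beside the shares.

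TGFBR1, the kinase that TGFBR2 activates, had 6.01, 10.8 and 4.998 FPKM with shNT, 7.01, 8.52 and 6.57 with sh1, and 12.2, 12.7 and 7.33 with sh2. The sh2 libraries were above their control of the same number in 3 of 3 pairs, but the groups overlapped. The log2 fold change was 0.074 with sh1 (95% interval -0.52 to 0.67, limma adjusted p = 0.929) and 0.53 with sh2 (95% interval -0.062 to 1.13, limma adjusted p = 0.415). TGFBR3, the co-receptor betaglycan, had 1.78, 2.72 and 3.92 FPKM with shNT, 2.91, 2.35 and 2.53 with sh1, and 3.81, 2.11 and 2.22 with sh2. Both silenced groups lay inside the control range. Its log2 fold changes were -0.046 and -0.026 (95% intervals -0.57 to 0.47 and -0.55 to 0.49).

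The ratio of TGFBR2 to TGFBR1 within a library was 6.49 ± 2.08 with shNT, 14.3 ± 6.19 with sh1 and 6.39 ± 2.31 with sh2 (n = 3 each, SD). The 3 sh1 libraries, at 9.17 to 21.2, were above the control libraries, which reached 7.81, while sh2 overlapped control. Over the 6 silenced against the 3 control libraries the mean log2 ratio differed by 0.53 (exact permutation test, two-sided, p = 0.369, adjusted p = 0.738 over 2 ratios). The smallest p that 84 arrangements allow is 0.0119.

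**Figure D2:**
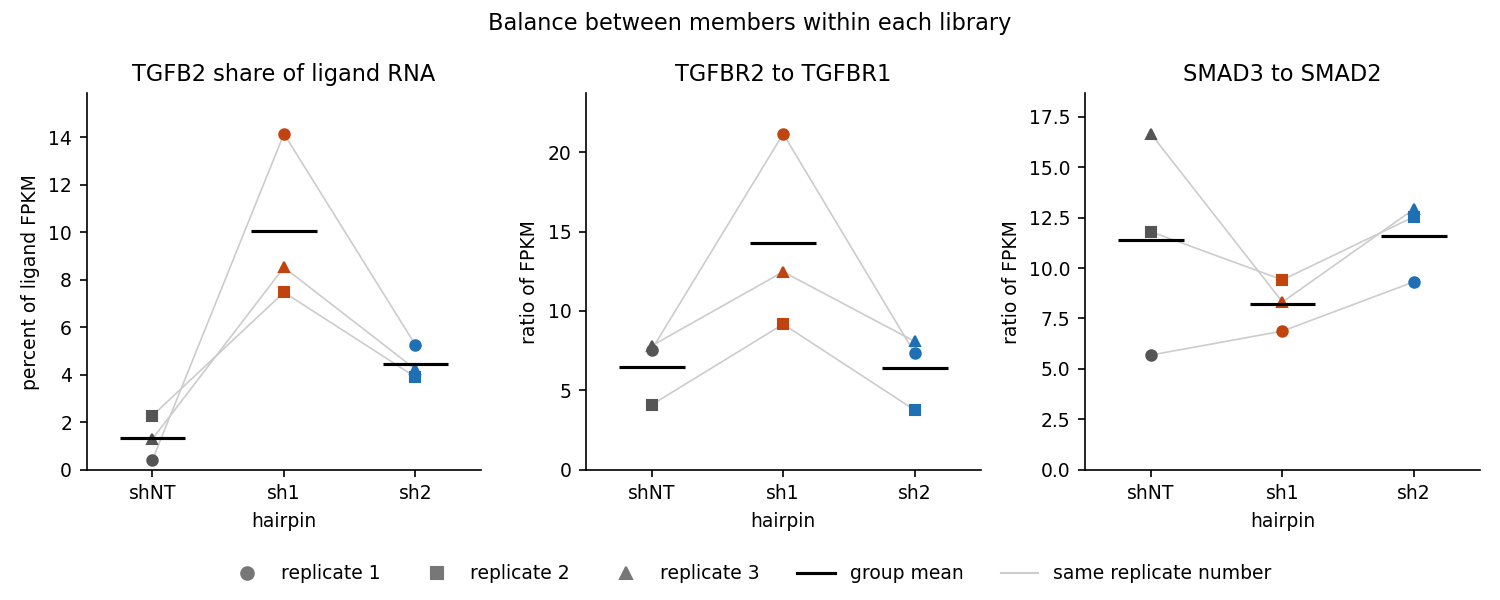
TGFB2 as percent of the summed FPKM of the 3 ligands, the TGFBR2 to TGFBR1 ratio and the SMAD3 to SMAD2 ratio (y axes, from 0) in each of the 9 libraries by hairpin, with group means as bars and lines joining equal replicate numbers. The TGFB2 share of the 6 silenced libraries, 3.90% to 14.1%, is above that of all control libraries. It largely restates the rise of TGFB2, known when the family was chosen, so nothing further is read from it. The ratios overlap between control and silenced libraries.

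RNAs of SMAD2, SMAD3 and SMAD4 differed less between the groups than those of TGFB2 and TGFBR2. SMAD2, a carrier of the signal, was at 5.41, 5.40 and 4.36 FPKM with shNT, 6.02, 5.71 and 5.29 with sh1, and 4.66, 5.46 and 4.41 with sh2. SMAD3, the other carrier, was at 30.8, 63.8 and 72.7 FPKM with shNT, 41.4, 53.7 and 44.0 with sh1, and 43.4, 68.5 and 57.0 with sh2. The control values of SMAD3 spread most, shNT replicate 1 being the lowest of all 9 libraries and shNT replicate 3 the highest. SMAD4, the shared partner, was at 4.60, 6.45 and 5.49 FPKM with shNT, 4.89, 5.87 and 6.06 with sh1, and 6.25, 6.50 and 5.33 with sh2. All groups overlapped for these 3 genes. With sh1 the log2 fold changes were 0.14 for SMAD2 (95% interval -0.16 to 0.45), -0.18 for SMAD3 (-0.84 to 0.48) and 0.025 for SMAD4 (-0.31 to 0.36). With sh2 they were -0.051 (-0.35 to 0.25), 0.080 (-0.58 to 0.74) and 0.12 (-0.22 to 0.45), and the limma adjusted p values of the 6 tests lay between 0.674 and 0.957.

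SMAD3 RNA exceeded SMAD2 RNA in all 9 libraries, by a ratio of 11.4 ± 5.49 with shNT, 8.20 ± 1.27 with sh1 and 11.6 ± 1.98 with sh2 (n = 3 each, SD). The silenced and control libraries differed in mean log2 ratio by -0.10 (exact permutation test, two-sided, p = 0.774, which is also the adjusted p over 2 ratios). This sign changed on leaving out single libraries, with values from -0.54 to 0.24.

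SMAD7, the inhibitor, which TGF-beta itself induces, was at 11.6, 11.3 and 4.23 FPKM with shNT, 8.61, 6.50 and 7.04 with sh1, and 20.9, 12.9 and 9.58 with sh2. All sh2 libraries were above all sh1 libraries, the reverse of TGFB2, and both groups overlapped the wide control range. Between the hairpins 1 of 9 members was higher without overlap and 1 lower, against 13.3% and 15.3% of all tested genes, so neither count is a result about the members. The log2 fold change was -0.16 with sh1 (SE 0.35, limma adjusted p = 0.870) and 0.66 with sh2 (SE 0.35, limma adjusted p = 0.428). The difference of sh2 from sh1 was 0.82 (SE 0.35, limma adjusted p = 0.335) and did not pass. For the same comparison TGFB2 had -0.70 (SE 0.27, limma adjusted p = 0.296) and TGFBR2 -0.63 (SE 0.28, limma adjusted p = 0.343). Of the 9 tested members 0 passed between the hairpins by limma, where 0.218% of all genes passed. At an unadjusted p under 0.05 there were 3 members and 14.1% of all genes.

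Over the 9 tested members the median log2 fold change was 0.025 with sh1, 0.21 with sh2 and 0.078 over both, against -0.0074, -0.012 and -0.017 for all tested genes. Without shNT replicate 1 the members' medians with sh2 and over both were 0.38 and 0.22, and the median with sh1 ran from -0.0081 to 0.13 on leaving out 1 library at a time. By limma 0 members passed with sh2 and 0 over both hairpins. At an unadjusted p under 0.05 there were 2 members with sh1, 1 with sh2 and 2 over both, against 13.5%, 12.7% and 12.6% of all tested genes. Counts this small beside those shares are no result about the members. These contrasts share the control libraries. All 10 genes had their lowest value in a control library, 4 in shNT replicate 1 (TGFB2, TGFBR3, SMAD3 and SMAD4) and 6 in shNT replicate 3 (TGFB1, TGFB3, TGFBR1, TGFBR2, SMAD2 and SMAD7). Of all tested genes 44.3% were lowest in a control library, 22.5% in shNT replicate 1 and 17.5% in shNT replicate 3. This count was made after the values were seen.

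**Figure D3:**
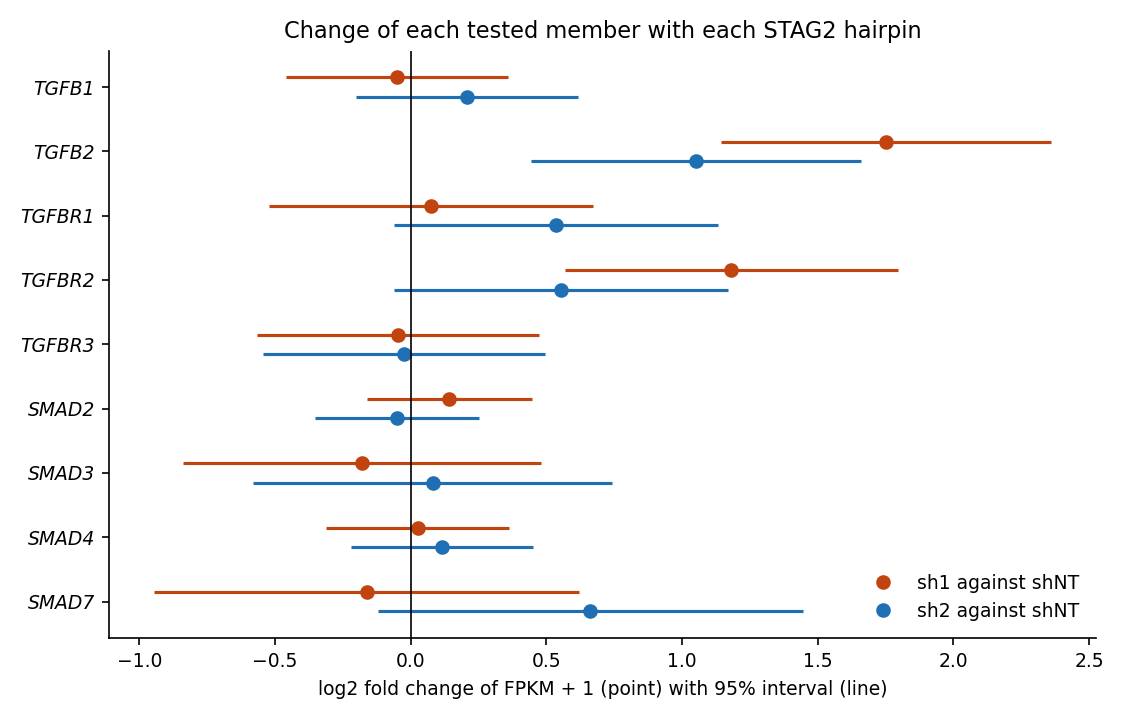
Log2 fold change of FPKM + 1 (x axis) of the 9 tested genes with sh1 and sh2 against shNT; points are estimates and lines 95% intervals from limma, and both colours share the 3 control libraries. The intervals are for each gene alone and are not adjusted for the number of genes tested. Those of TGFB2 lie above 0 for both hairpins and that of TGFBR2 for sh1, and all others include 0. TGFB2 with sh2 and TGFBR2 with sh1 did not pass (limma adjusted p = 0.372 and 0.151). The family was chosen knowing the rise of TGFB2 with sh1, so nothing is read from that interval.

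By level per transcript length, the control libraries fell into steps. SMAD3 (55.7 ± 22.1 FPKM), TGFBR2 (42.9 ± 3.39) and TGFB1 (37.1 ± 9.06) were the most abundant and overlapped with each other. SMAD7 (9.05 ± 4.18), TGFBR1 (7.26 ± 3.08), SMAD4 (5.51 ± 0.923) and SMAD2 (5.06 ± 0.602) formed a lower step in which neighbours overlapped. TGFBR3 (2.81 ± 1.07) stood by itself, and TGFB3 (0.851 ± 0.263) and TGFB2 (0.484 ± 0.349) were the lowest and overlapped (SD, n = 3 each). With sh1, TGFB2 at 4.12 FPKM stood above TGFB3 at 0.950 ± 0.221 FPKM without overlap, and its range met that of TGFBR3 at 2.60 ± 0.286 FPKM (SD, n = 3 each).

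Among the genes most like TGFB2 across the 9 libraries, by Pearson's r of log2(FPKM + 1) over all tested genes, were MAPK14 (0.991), CPOX (0.964), MAP2K4 (0.964) and RLF (0.960). MAPK14, the p38 alpha kinase, ran from 27.4 ± 2.09 FPKM with shNT to 38.5 ± 4.02 with sh1 and 32.5 ± 2.24 with sh2 (n = 3 each, SD). TGFBR2 had r = 0.939, and the other 7 tested members had -0.18 to 0.40. These are descriptions over libraries that share groups, and these 4 genes were picked as the highest of many compared.

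A sequence feature of the 3′ UTRs was also read. The heptamer AGCTTTA was searched in the 3′ UTRs because earlier results of these data had found it often in genes lower with sh1. It was in the 3′ UTR of TGFB2 and of TGFBR2 and of no other tested member, and in 15.6% of the 3′ UTRs of 10400 tested genes. So few carriers beside that share are no result about the members. The 3′ UTRs of both are longer than the median of 1392 bases among those genes. Both carriers were higher with sh1, which was known for TGFB2 when the family was chosen, so nothing is read from their direction. The sites are printed with 11 bases on each side and the heptamer in capitals. They lie at base 1937 of 3260 in TGFB2 and base 1765 of 2546 in TGFBR2. For each gene the GENCODE transcript with the longest 3′ UTR was used (GRCh38).
TGFB2: gtcgcttatttAGCTTTAaaataaaaatt
TGFBR2: aacaaagtatgAGCTTTAaaactccatag

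The proteins that store and free the ligands come next in the pathway. Of 22 such genes 14 were tested, and 0 passed in either direction with sh1, with sh2 or over both hairpins (limma). At an unadjusted p under 0.05 there were 8, 3 and 5 in that order, beside the 13.5%, 12.7% and 12.6% of all tested genes given above, which also stand behind the counts of this kind that follow. The median log2 fold change over both was 0.37, with 8 of 14 above 0, but 0.032 without shNT replicate 3. It was 0.28 with sh1, with 8 above 0 and 6 below, and 0.45 with sh2, with 13 above and 1 below. Without shNT replicate 3 these medians were -0.045 and 0.27. Between the hairpins 5 of the 14 genes were higher with sh2 without overlap and 0 lower, beside 13.3% and 15.3% of all tested genes. THBS1, thrombospondin 1, which can free latent TGF-beta, was at 229, 187 and 97.1 FPKM with shNT, 571, 304 and 373 with sh1, and 542, 269 and 394 with sh2. All 6 silenced libraries were above the controls, as for 1 of the 14 tested genes of this list and 2.28% of all tested genes. Of the 9 THBS1 values 7 had a restored decimal point. Its log2 fold change over both hairpins was 1.29 (SE 0.32, limma adjusted p = 0.314). ITGAV, the integrin chain that binds latent TGFB1, was at 28.2, 88.6 and 26.6 FPKM with shNT, 89.8, 78.5 and 83.5 with sh1, and 98.8, 104 and 60.8 with sh2. Here shNT replicate 2 lay among the silenced libraries (log2 fold change over both 1.04, SE 0.35, limma adjusted p = 0.340). Of the 9 values of ITGAV 4 had a restored decimal point, among them all 3 sh2 values. Its partner ITGB6 had 71.1 ± 54.2, 108 ± 7.68 and 89.7 ± 35.6 FPKM, and the partner ITGB8 had 1.55 ± 0.394, 3.19 ± 0.892 and 2.13 ± 0.486 (SD, n = 3 each). The latent binding proteins LTBP1 (2.85 ± 0.708, 2.53 ± 0.498 and 2.53 ± 0.205 FPKM) and LTBP3 (35.0 ± 7.66, 23.6 ± 4.99 and 39.5 ± 6.46) and the protease FURIN (65.6 ± 18.7, 65.7 ± 9.71 and 88.9 ± 13.8) overlapped between control and silenced libraries. For LTBP3 all sh2 libraries were above all sh1 libraries (log2 difference 0.73, SE 0.21, limma adjusted p = 0.194).

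Other ligands and receptors of the superfamily were mostly low. Of 30 other ligands and extracellular inhibitors 12 were tested, with 0 past the threshold in any of these 3 contrasts by limma and 3, 2 and 3 at an unadjusted p under 0.05. Their median over both was 0.12, and 0.053 without shNT replicate 3. INHBA, which forms activin A, was at 3.34, 3.70 and 3.63 FPKM with shNT, 10.9, 5.18 and 7.87 with sh1, and 13.7, 4.64 and 8.79 with sh2. All silenced values were above the narrow control range, and replicate 1 was again the highest of each silenced group (log2 fold change over both 0.98, SE 0.28, limma adjusted p = 0.328). Such a lack of overlap was seen in 2 of the 12 tested genes of this list, beside 2.28% of all tested genes. INHBB, BMP4, GDF15 and the activin trap FST had 6.66 ± 1.54, 1.85 ± 1.19, 10.7 ± 15.8 and 2.37 ± 0.880 FPKM with shNT and overlapped with the silenced libraries. GDF15 was at 28.9 FPKM in shNT replicate 3, against 1.67 and 1.40 in replicates 1 and 2. Of 11 other receptors 6 were tested, with 0 past the threshold in these contrasts by limma and 1, 0 and 0 at an unadjusted p under 0.05. Their median over both was 0.18, and 0.065 without shNT replicate 1. ACVR1B, the activin counterpart of TGFBR1, had 23.4 ± 4.22, 29.5 ± 1.02 and 25.7 ± 2.78 FPKM, and BMPR2 had 8.78 ± 5.91, 12.5 ± 1.47 and 13.6 ± 3.99 (SD, n = 3 each). ACVR2A and BMPR1A had 1.54 ± 0.390 and 11.3 ± 1.98 FPKM with shNT, and the co-receptor ENG, at 0.525 ± 0.149, was not tested. With sh2 ACVR2A was below all controls, at 1.18 ± 0.120 FPKM. This held for 1 of the 6 tested receptors and 8.54% of all tested genes.

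Among SMADs outside the family, SMAD6, an inhibitor mainly of the BMP branch, was lower in all silenced libraries. It was at 6.86, 6.45 and 7.57 FPKM with shNT, 2.86, 4.65 and 3.34 with sh1, and 3.13, 5.24 and 4.66 with sh2, with no overlap. The log2 fold change over both hairpins was -0.70 (SE 0.17, limma adjusted p = 0.314). Of the 3 tested genes of this list 1 had all 6 silenced libraries below control, beside 2.17% of all tested genes. SMAD1 and SMAD5, which carry BMP signals, had 8.05 ± 3.37 and 13.5 ± 4.16 FPKM with shNT and overlapped with silenced libraries. Of 4 such genes 3 were tested and 0 passed in these contrasts by limma, with 1 in each at an unadjusted p under 0.05. Of 32 intracellular regulators 30 were tested and 0 passed in these contrasts by limma, with 4, 4 and 5 at an unadjusted p under 0.05. Their median over both was 0.12, and 0.018 without shNT replicate 1. BAMBI, a decoy receptor, was at 12.0, 10.1 and 10.0 FPKM with shNT, 8.47, 9.33 and 5.32 with sh1, and 9.04, 9.54 and 7.61 with sh2, again without overlap (log2 fold change over both -0.36, SE 0.16, limma adjusted p = 0.401). Of the 30 tested regulators 1 was higher and 1 lower without overlap in all 6 silenced libraries, beside 2.28% and 2.17% of all tested genes. Counts this small are no result about the lists. SKI, a repressor of SMAD activity, had 19.4 ± 4.43 FPKM with shNT, 17.8 ± 1.64 with sh1 and 10.6 ± 3.14 with sh2. SMURF1 and SMURF2, ubiquitin ligases that remove receptors and SMADs, had 18.8 ± 5.65 and 9.82 ± 2.84 FPKM with shNT. SKIL, TGIF1 and PMEPA1 had 28.2 ± 22.8, 69.0 ± 10.4 and 154 ± 98.9 FPKM there (SD, n = 3 each). TGIF1 was below all controls with sh1, at 56.0 ± 2.22 FPKM, and had 84.5 ± 14.8 with sh2. SKI was below all controls with sh2. Of the 30 regulators 2 lay above and 2 below all controls with sh1, beside 8.7% and 8.97% of all tested genes. With sh2 they were 2 and 3, beside 6.67% and 8.54%.

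Genes that TGF-beta commonly induces or represses in epithelial cells were read last. Of 42 listed, 32 were tested. With sh1, 0 rose and 1 fell (CDH1), with sh2 and over both hairpins 0 passed in either direction (limma), and 7, 5 and 9 in that order had an unadjusted p under 0.05. The median over both was 0.36, with 23 of 32 above 0, but 0.013 with 17 above 0 without shNT replicate 3, so both rest on that library. The list mixes induced and repressed genes, so neither the median nor the count measures a response to TGF-beta. CDH1, which encodes E-cadherin and is repressed in the mesenchymal transition, was at 80.9, 102 and 75.3 FPKM with shNT, 40.0, 30.8 and 39.0 with sh1, and 143, 112 and 113 with sh2. The 3 groups did not overlap, sh1 being below and sh2 above control. Its 3 sh2 values and 1 control value had a restored decimal point. CDH1 fell by 1.21 on the log2 scale with sh1 (SE 0.17, limma adjusted p = 0.0496) and had 0.51 with sh2 (SE 0.17, limma adjusted p = 0.372). It was higher with sh2 than with sh1 by 1.72 (SE 0.17, limma adjusted p = 0.0197). The sh1 call was lost on leaving out any 1 of the 9 libraries. The call between the hairpins was lost without sh1 replicate 1 (limma adjusted p = 0.122) or replicate 2 (0.0574), or without sh2 replicate 1 (0.0789) or replicate 3 (0.124). CTGF had 33.5 ± 11.8, 24.1 ± 1.25 and 41.5 ± 5.61 FPKM. TGFBI had 190 ± 22.7, 178 ± 27.9 and 230 ± 21.3 FPKM, and SNAI2 64.1 ± 32.5, 79.4 ± 4.06 and 121 ± 22.8. A decimal point was restored in 8 of the 9 TGFBI values. ID1 and VIM had 142 ± 159 and 5.42 ± 5.10 FPKM with shNT (SD, n = 3 each), so their control spread was as large as their mean. In shNT replicate 3 ID1 was at 326 FPKM, against 48.3 and 52.9 in replicates 1 and 2. There VIM was at 0.201 FPKM, against 10.4 and 5.68, and SNAI2 at 26.8, against 79.5 and 86.0. Beyond the naming rule, chosen after its values were seen, FN1 (fibronectin, which tethers latent complexes and is itself a target) had 77.3 ± 64.8, 366 ± 199 and 203 ± 95.8 FPKM and overlapped. Its log2 fold change over both was 2.23 (SE 0.72, limma adjusted p = 0.328). Of the 9 FN1 values 6 had a restored decimal point (1 with shNT, 2 with sh1 and 3 with sh2). Also outside that rule, GDF11 (1.69 ± 0.305, 2.73 ± 0.247 and 2.77 ± 0.270 FPKM), DAB2 (2.52 ± 1.26, 4.01 ± 0.330 and 4.58 ± 0.259) and ITGA5 (4.56 ± 0.638, 8.33 ± 1.36 and 8.03 ± 1.69) had all 6 silenced libraries above control (SD, n = 3 each). They were named for this pattern, which 2.28% of all tested genes had, and 0 of them passed over both hairpins (limma). A decimal point was restored in 1 control value of GDF11.

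**Figure D4:**
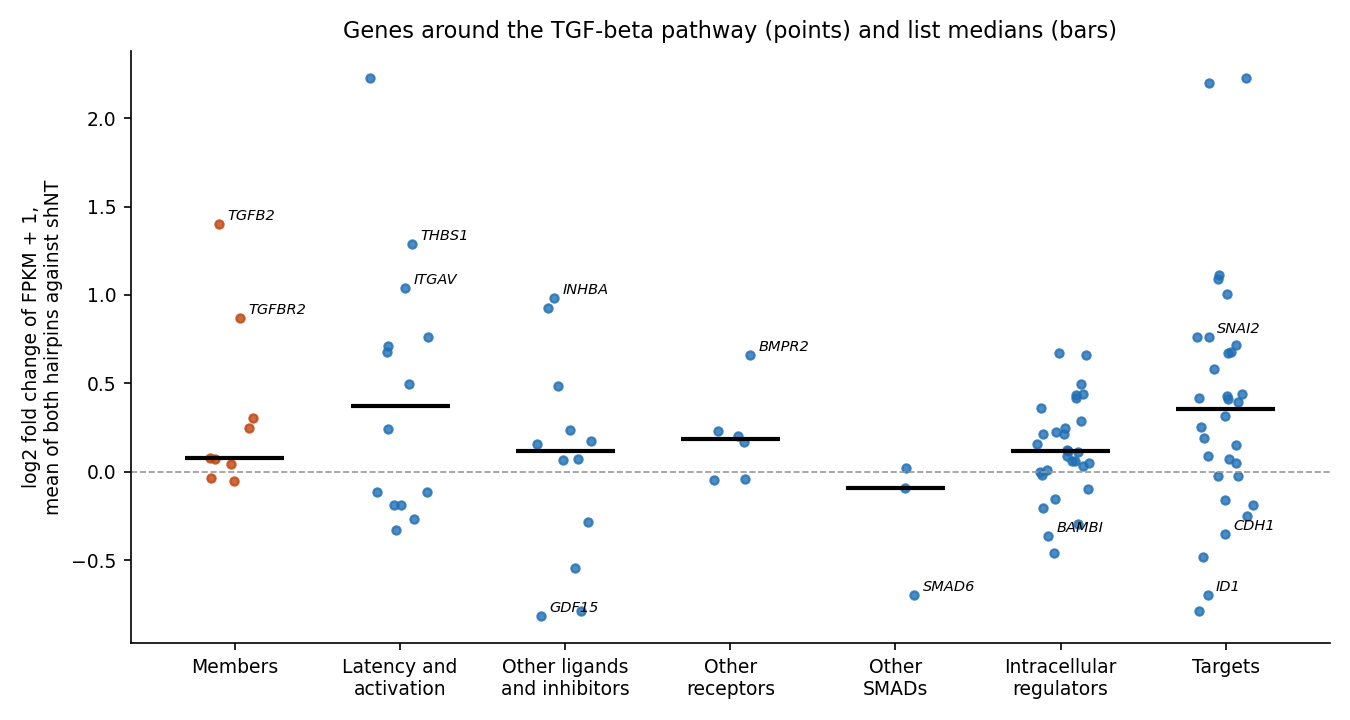
Log2 fold change of FPKM + 1 over both hairpins against shNT (y axis) for each tested gene of the family and of 6 pathway lists (x axis); points are genes, bars list medians, and a gene in 2 lists appears in both. The medians are 0.078 for the family, 0.37 for latency genes and 0.36 for targets, and of all genes shown 0 passed the threshold in this contrast. Targets include induced and repressed genes, so their median does not measure a response to TGF-beta.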

How the data were processed

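RNA was measured in 9 libraries, and the authors deposited 1 table of FPKM values per gene. The submitters' processing notes name hg19; aligner, counter, annotation and scaling are not given in the sources used. Depth is unknown, so errors rest on replicates alone. Many deposited values had lost their decimal point: 10255 of 210330 (4.88%) were divided by 1000 because that reading lay nearer to the gene's other values, or, for 1329, without such a value to compare with. This touched 3 of the 90 values of the 10 genes (TGFB1 in sh2 replicate 3, SMAD3 in shNT replicate 1 and sh2 replicate 3) and 0 of TGFB2 and TGFBR2.

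Group means of log2(FPKM + 1) were compared by limma 3.58.1 under R 4.3.3 (variance trend, two-sided, Benjamini-Hochberg over 11952 genes averaging 1 FPKM or more, threshold 0.05), all 9 libraries in 1 model, tested on simulated data. Python 3.11.15 (numpy 2.4.6, pandas 2.3.3, scipy 1.17.1, matplotlib 3.10.9) did the rest. Alternatives were pseudocounts of 0.1 and 0.5, no filter, spike-in scaling, quantile normalization, the replicate block, only the groups compared, restored values set to missing, and leaving out each library; the last, for list medians, was added after seeing the data.

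Libraries with the same replicate number in their titles deviated together from their group means across genes (r from 0.118 to 0.49 over 9 pairs). The 18 other pairs had r from -0.629 to 0.205. Deviations cancel within a group, so positive r in some pairs pushes r down in others, and this contrast is partly built in. The main fit used the group only. The numbers served for the counts by pair and for the replicate block, an alternative. The genes, lists and tests were chosen with earlier results of these data known. Named were the 10 genes, a preset choice from each list, list genes past the threshold, and the 5 genes with the highest Pearson r to TGFB2. Of all genes this rule names, 2 are not reported here. Gene positions are from GENCODE 29 (GRCh38).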

Additional observations from a re-analysis of the deposited data

Results flagged for a closer look

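CDH1, a gene repressed by TGF-beta in epithelial cells, differed between the hairpins. All 3 sh1 libraries lay below and all 3 sh2 libraries above the control libraries, and the log2 difference of sh2 from sh1 was 1.72 (SE 0.17, limma adjusted p = 0.0197). Against control it fell by 1.21 on the log2 scale with sh1 (limma adjusted p = 0.0496), while its value with sh2, 0.51 (limma adjusted p = 0.372), did not pass. No other gene of the pathway lists, and none of the 10 core genes, passed between the hairpins.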

How the results depend on the processing

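TGFB2 and TGFBR2 were higher with sh1, with sh2 and over both hairpins under every alternative run (17, 17 and 16 settings). With sh1, 1 member (TGFB2) was past the threshold with pseudocount 0.5 and quantile normalization as in the report. With pseudocount 0.1, no filter, spike-in scaling, only the groups compared and restored values set to missing 0 members were (limma), and 0 on leaving out any library. These counts are a description, since the family was chosen knowing this call. Among other pathway genes, the sh1 count of 1 (CDH1) became 0 with pseudocount 0.1, no filter, or only the compared groups in the fit, with spike-in scaling, and whichever 1 library was left out. It was also 0 with restored values set to missing, where CDH1 could not be tested because all 3 of its sh2 values were then missing. The count of all genes with sh1 went from 20 to 3 (pseudocount 0.1), 3 (no filter), 0 (spike-in scaling), 0 (only the groups compared), 3 (restored values missing) and 0 to 14 (libraries left out). With sh2 it went from 1 to 0 without a filter, 0 with spike-in scaling, 0 with only the groups compared, and 0 to 6 with libraries left out, and over both from 1 to between 0 and 3. Between the hairpins the count of all genes went from 26 to 0 (no filter), 2 (spike-in scaling), 92 (only the groups compared), 3 (restored values missing) and 0 to 52 (libraries left out). The pathway count there went from 1 to 0 (no filter), 0 (restored values missing, CDH1 again not tested), 3 (only the groups compared) and 0 to 2 (libraries left out). The cause of the other moves was not tested. With the replicate block, which pairs libraries by number, 2 members passed with sh1 (TGFB2 and TGFBR2), 77 genes passed with sh1 and 17 between the hairpins; the block changed no other call among the members. On leaving out libraries the log2 ratio of SMAD3 to SMAD2 ranged from -0.537 to 0.238 and that of TGFBR2 to TGFBR1 from 0.231 to 0.787. The sign of the first rests on single libraries. The unknown depth limits what can be said of TGFB2 and TGFB3 at under 1 FPKM.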
